A study of Homo sapiens and Mus musculus with 41 samples.

Results

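The genes described here are 7 genes of the classical complement pathway and of the guard against it: the proteases C1R, C1S and C2, the C1 inhibitor SERPING1, and the membrane regulators CD46, CD55 and CD59. They were chosen by name, as the rows of each deposited table whose gene symbol equals one of these names in either case, with C1ra standing for C1R and Cd59a for CD59 in the mouse table. All 7 were found in each of the 4 tables, among 23368 genes in each human table and 23337 in the mouse table. After the filter on low values all 7 could be tested in the human models, and 5 of 7 in the mouse model, where Serping1 and Cd55 were too low.

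Tumour cell lines in culture were profiled by RNA sequencing of their polyadenylated RNA, in 41 libraries. HCC1954 is a human breast ductal carcinoma line of grade III with elevated HER2/Neu, MDA-MB-231 a human breast ductal carcinoma line without ER, PR or HER2, PC9 a human lung adenocarcinoma line with elevated EGFR, and LLC a C57/B6 mouse line of Lewis lung carcinoma. Every parental line (Par) carried GFP. The leptomeningeal derivative (Lep) of each line came from cells washed out of the leptomeningeal space of mice with such metastases, grown on plastic until the GFP-positive cells were homogeneous, and passaged 3 times. An intermediate stage derivative (Int) and a brain metastatic derivative (BrM) completed each model, and the labels do not say how BrM was obtained. All libraries are therefore of cells in culture and not of tissue. Host cells left in a culture were not looked for beyond the markers given below. In the human models those markers are human genes, so they were not a check for mouse host cells. HCC1954 had 3 Par, 2 Int, 3 Lep and 2 BrM libraries, MDA-MB-231 and PC9 had 3, 2, 2 and 3, and LLC had 3, 2, 3 and 3. The Par replicates are technical and the Int and Lep replicates are biological and technical in an unstated mix, so the p-values measure the spread between these libraries and not between animals.

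The classical pathway starts when C1q binds an antibody or another target and the protease C1r, held in the same complex, activates the protease C1s. C1s cuts C4 and C2, whose fragments form the convertase that cuts C3, and the C1 inhibitor inactivates C1r and C1s. Host cells carry CD46, which helps factor I to cut bound C3b and C4b, CD55, which speeds the decay of convertases, and CD59, which blocks the last step of the membrane attack complex. CD55 and CD59 are held in the membrane by a glycosylphosphatidylinositol (GPI) anchor. In rodents CD46 is largely a protein of the testis, and Crry, the product of Cr1l, does much of this work on body cells.

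Several of these genes are neighbours. In RefSeq's gene order (GRCh38.p14) no protein-coding gene lies between C1R and C1S on chromosome 12. C2 on chromosome 6 lies near CFB, the alternative pathway protease of the same family. By order of starts 1 protein-coding gene, ZBTB12, comes between them, but its span overlaps that of C2 by 2474 bases. On chromosome 1, CD55 and CD46 are separated by 3 genes, the complement receptor genes CR2, CR1 and CR1L. C1R, C2 and CD55 were the genes with RefSeq promoter entries that were called higher in the HCC1954 Lep libraries. For each, the 250 bases before a listed start are shown, so that they can be read beside the values of the same genes. The letters searched, on both strands, were TTCNNNGAA, the core of the gamma-activated site, and the core of the interferon-stimulated response element, 2 copies of GAAA with 2 bases between them, and capitals mark a match. The windows are C1R at chr12:7091894-7092143 on the minus strand, C2 at chr6:31897533-31897782 on the plus strand, and CD55 at chr1:207321428-207321677 on the plus strand.
C1R: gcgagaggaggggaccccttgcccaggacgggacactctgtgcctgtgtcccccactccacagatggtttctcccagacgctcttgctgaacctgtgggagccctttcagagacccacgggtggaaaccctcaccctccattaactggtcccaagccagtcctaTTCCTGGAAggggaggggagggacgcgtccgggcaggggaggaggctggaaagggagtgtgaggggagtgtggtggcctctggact
C2: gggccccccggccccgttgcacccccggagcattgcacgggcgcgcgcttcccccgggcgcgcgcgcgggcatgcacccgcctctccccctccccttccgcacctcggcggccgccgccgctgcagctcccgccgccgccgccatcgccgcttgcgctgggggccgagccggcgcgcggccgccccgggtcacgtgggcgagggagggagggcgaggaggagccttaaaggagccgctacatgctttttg
CD55: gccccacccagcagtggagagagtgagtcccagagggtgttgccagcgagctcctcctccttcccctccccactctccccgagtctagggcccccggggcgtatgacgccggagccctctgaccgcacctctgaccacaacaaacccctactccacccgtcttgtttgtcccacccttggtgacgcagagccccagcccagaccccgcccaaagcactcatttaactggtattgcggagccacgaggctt
The C1R window holds TTCCTGGAA, 86 to 78 bases before the start, while a second listed C1R start has no match. CD59 has TTCTCAGAA 128 to 120 bases before 1 of its 4 listed starts, and the window of a nearby start holds the same letters. The shown C2 and CD55 windows, and those of CD46, hold neither set of letters. Of 35116 promoter windows of this length, 6.57% hold the first set of letters and 3.02% the other, so a match is a description of the sequence only. SERPING1 and C1S are named here without a promoter.

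The deposited values are normalized counts, read counts divided by 1 factor per library, and tables were normalized separately, so levels are compared only within a model. The libraries of HCC1954 held 25330801 to 67367833 recovered reads each, with 23508951 to 110830546 in MDA-MB-231, 16792027 to 38432963 in PC9 and 18029707 to 67939274 in LLC. Replicates were close in HCC1954, where at most 3.66% of tested genes differed over 2-fold between libraries of a group. They were far apart in MDA-MB-231, where Par 1 and Par 3 differed over 2-fold at 30.5% of tested genes and the Lep libraries at 15.1%. The deviation of genes from their mean followed transcript length there, with Spearman's rho across genes of 0.47 in Par 1 and -0.45 in Par 3. In PC9 it followed length by stage, with rho of 0.33 to 0.35 in Par, 0.27 to 0.40 in BrM and -0.48 to -0.37 in Int and Lep. CD46 and CD59, with longest transcripts of 7826 and 7631 bases against 2231 to 3501 for the other members, are the members this touches most. As for cell type, all 6 carcinoma markers (EPCAM, CDH1 and 4 keratins) had reads in every human group. CDH1 was low in MDA-MB-231, with means of 105 in Par and 4.53 in BrM. The summed levels were 113030 to 117091 in HCC1954 Lep and 276361 to 280489 in Par, with KRT19 means of 358 and 43048. The summed endothelial markers of HCC1954 were 4941 to 4952 in BrM and 639 to 974 in the other stages, and the summed macrophage markers, mostly CD68, were 2715 to 2815 in Par, 1049 to 1312 in Int, 2410.2 to 2682 in Lep and 999 to 1020.4 in BrM. Of the 7 macrophage markers, C1QA was at 0 in all HCC1954 and PC9 groups, while CD68, CSF1R and ITGAM were detected, ITGAM with means of 10.3 in PC9 Par and 143 in PC9 Lep. The part of these differences in the results was not tested. In LLC, Epcam had a mean under 1 in every stage, while the 6 carcinoma markers summed to 15461 to 17407 in Par, 3070.0 to 8030.3 in Lep and 16526.5 to 24390 in BrM, mostly Krt8 and Krt18. The summed fibroblast markers of LLC, mostly Col3a1, were 111202 to 124935 in Par and 15291 to 29205 in Lep. Its summed macrophage markers, mostly Cd68, were 203 to 243 in Par, 5230 to 5610 in Int, 134 to 298 in Lep and 188 to 199 in BrM. Among them Csf1r had means of 0.221 in Par and 16.8 in Lep and Ptprc 0.458 and 10.6, while Cd68 had 222 and 190. Host reads cannot be told apart from those of mouse tumour cells, and the part of these markers was not tested.

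A gene was called when limma's Benjamini-Hochberg adjusted p over all tested genes was under 0.05 and the log2 difference was at least 1 in size. In HCC1954 all 7 members stood higher in Lep than in Par and Int, and 5 of 7 higher than in BrM. Lep with Par called 5 of 7 higher and none lower, where 26.8% of all tested genes were called in either direction. The libraries of all 7 members lay above Par without overlap, where 82.3% of all tested genes had an unadjusted p under 0.05 in either direction. Lep with Int called 3 of 7 higher, against 15.1% of all genes. Again all 7 separated upwards, where 70.3% of all genes had an unadjusted p under 0.05 in either direction. The share of all genes whose libraries separate was not counted. Lep with BrM called 3 of 7 higher, against 17.1%, while CD46 and CD55 were lower in all Lep libraries than in BrM, by under 2-fold. Int with Par called 1 higher and 1 lower (all genes 21.2%), BrM with Par 1 higher and 1 lower (23.6%), and BrM with Int 1 lower (11.1%). The median log2 difference of the 7 members in Lep with Par was 1.24, and that of all 15561 tested genes was -0.02.

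MDA-MB-231 gave 1 call in 42 tests, C2 lower in BrM with Int, where 23.6% of all genes were called. In Lep with Par limma called 0 of 7 members and 0.0662% of all genes, and edgeR and DESeq2 also called 0 members. Unadjusted p was under 0.05 for 1 higher and 1 lower member, and for 10.6% of all genes. Int with Par called 0 of 7 against 6.94% of all genes. At an unadjusted p under 0.05, 4 members were higher, against 35.6% of all genes in either direction. There edgeR called 2 members and DESeq2 3. Limma called 0 of 7 in Lep with Int (0.159% of all genes), in BrM with Par (0.450%) and in Lep with BrM (0.827%). At an unadjusted p under 0.05 these had 1 member lower, 1 higher and 1 lower, against 14.0%, 15.5% and 21.6% of all genes. In each, edgeR called 0 members, and DESeq2 called 1, 1 and 0. The shares of all genes called by edgeR and DESeq2 are not given here. Without Par 1 the 6 comparisons gave 3 calls in place of 1, without either Lep library 4, without BrM 1 they gave 2, and without either Int library 0.

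PC9 gave 12 calls in 42 tests, and 9 of them involved BrM as the lower group. Lep with Par called 1 of 7 higher, against 15.1% of all genes. Int with Par called 2 higher (13.9%), BrM with Par 2 lower (7.72%), Lep with BrM 3 higher (18.6%) and BrM with Int 4 lower (17.2%). Lep with Int called 0 of 7 members with limma, edgeR or DESeq2, against 0.608% of all genes with limma. At an unadjusted p under 0.05, 1 member was lower, against 17.7% of all genes in either direction. The Lep libraries of PC9 differed from each other, and without Lep 1 the comparison with Int gave 2 calls.

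LLC went the other way from HCC1954 in Lep with Par and in Lep with Int, but not in Lep with BrM. Of its 14 calls, 12 were lower in the stage named first and 2, both in Lep with BrM, were higher. As in PC9, every call between BrM and another stage had BrM as the lower group. Lep with Par called 3 of 5 tested members lower and none higher (all genes 20.3%). Lep with Int called 2 lower (22.5%), Int with Par 1 lower (11.5%), BrM with Par 3 lower (23.2%) and BrM with Int 3 lower (27.9%). Lep with BrM called 2 higher (18.0%). Its median member difference in Lep with Par was -1.46, over the 5 members that passed the filter, and that of all 13494 tested genes was 0.00.

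**Figure D1:**
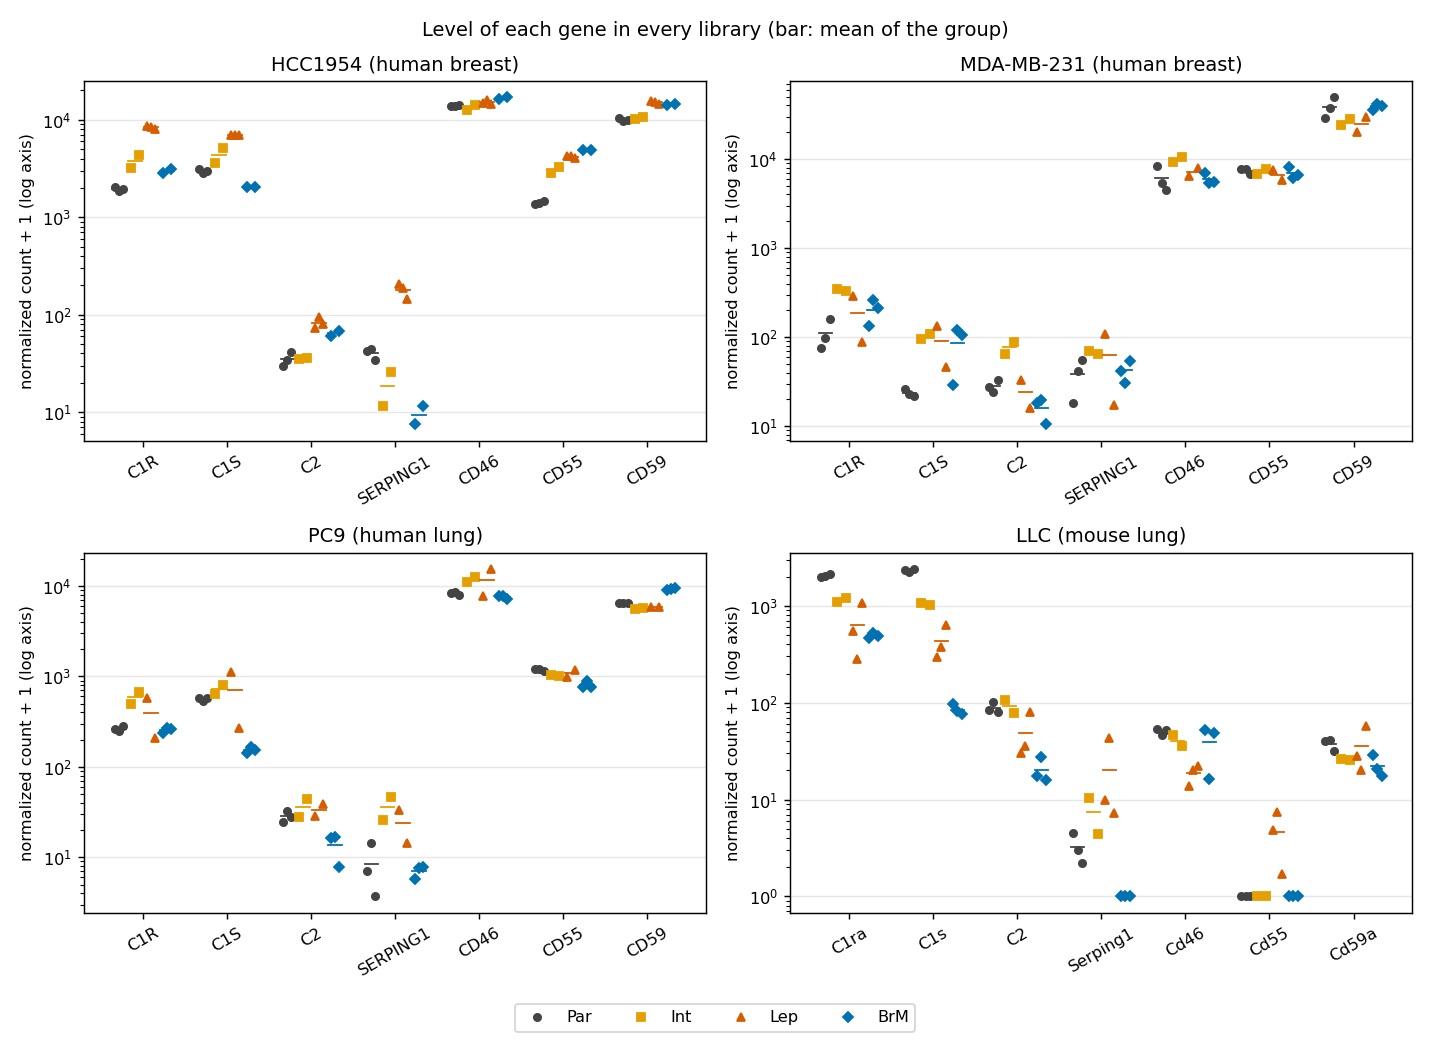
Normalized count plus 1 (log axis) of each gene in every library of the 4 models, with a bar at each group mean. In HCC1954 the 3 Lep libraries lie between 8003 and 8571 for C1R and all other libraries at 4333 or below, while CD46 stays between 12569 and 16982 in all 10 libraries.

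C1R and C1S are the proteases of the C1 complex. In HCC1954, C1R had 2055, 1876 and 1957 normalized counts in Par, 3227 and 4333 in Int, 8571, 8508 and 8003 in Lep and 2840.4 and 3123 in BrM. All 3 Lep libraries were above all others, and Par was lowest. C1R was higher in Lep than in Par by 2.09 ± 0.08 (SE) on the log2 scale (adjusted p = 3.1e-11), than in Int by 1.16 ± 0.09 (1e-07) and than in BrM by 1.49 ± 0.09 (7e-09). Without Int 1 the difference from Int was 0.95 and below the 2-fold limit. Int and BrM also lay above Par, by 0.93 and 0.60, without reaching 2-fold. C1S had 3136, 2825 and 2966 in Par, 3579 and 5128 in Int, 7052, 6929.6 and 6911 in Lep, and 2026 and 2062 in BrM. Here Lep was again highest, but BrM lay below Par. C1S was higher in Lep than in Par by 1.23 ± 0.09 (adjusted p = 2.3e-08) and than in BrM by 1.77 ± 0.10 (3.9e-09), and BrM differed from Int by -1.07 ± 0.11 (2.4e-06). The last call was lost without Int 2, with a difference of -0.81.

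In PC9, C1S was lowest in BrM and C1R was not. C1S had 580.1, 539 and 577 in Par, 635 and 807 in Int, 1127 and 270.0 in Lep, and 142, 164 and 152 in BrM. BrM lay below every other library, and the Lep libraries stood on both sides of Par. C1S in BrM differed from Par by -1.88 ± 0.35 (log2, adjusted p = 0.0008) and from Int by -2.22 ± 0.39 (0.00023), and Lep was higher than BrM by 1.85 ± 0.39 (0.00092). Without Lep 1 the last difference was 0.82 and not called. C1R had 260.0, 246 and 279.6 in Par, 495 and 679 in Int, 577 and 206 in Lep, and 237, 265 and 261 in BrM. BrM overlapped Par, and Lep 2 was the lowest library. Both Int libraries stood above Par, by 1.15 ± 0.30 (adjusted p = 0.0044), and BrM differed from Int by -1.19 ± 0.30 (0.0033). Without Int 2 these differences were 0.92 and -0.96 and not called. C1R in Lep with Par differed by 0.40 ± 0.30, with a 95% interval from -0.25 to 1.04, and C1S by -0.03 ± 0.39, from -0.87 to 0.81.

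In LLC both proteases were highest in the parental line. C1ra had 1999, 2022 and 2122 in Par, 1094 and 1191 in Int, 548, 279.9 and 1076 in Lep and 460.4, 517 and 489 in BrM. Every derivative library was below every Par library, and the Lep libraries spanned a wide range. C1ra differed from Par by -1.90 ± 0.34 in Lep (log2, adjusted p = 0.00075) and by -2.07 ± 0.34 in BrM (0.00036), and BrM from Int by -1.22 ± 0.38 (0.016). The last call was lost without Int 1, with a difference of -1.28, and without Int 2, with -1.16. The call of C1ra lower in Lep than in Int, at -1.06 ± 0.38 (adjusted p = 0.036), was not made by edgeR, at -0.84 and adjusted p = 0.07, or by DESeq2, at -0.84 and 0.043. It was also lost without Lep 2, with -0.57, and without 5 other single libraries (Par 1, Par 3, Int 1, Int 2 or Lep 1), with -1.12 to -0.99.

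C1s of LLC had 2328, 2216 and 2385 in Par, 1071 and 1031 in Int, 297, 374 and 626 in Lep and 95.1, 80.8 and 75.7 in BrM. The 4 stages did not overlap, with the order Par, Int, Lep, BrM from high to low. C1s differed from Par by -1.13 ± 0.25 in Int (log2, adjusted p = 0.0068), by -2.49 ± 0.23 in Lep (6.6e-06) and by -4.77 ± 0.23 in BrM (1.1e-07). The call in Int was lost without Int 2, with -1.11 and adjusted p = 0.057. C1s also differed from Int by -1.35 ± 0.25 in Lep (adjusted p = 0.001) and by -3.64 ± 0.25 in BrM (1.2e-06), and was higher in Lep than in BrM by 2.29 ± 0.23 (1.6e-05). The summed fibroblast markers of LLC, nearly all Col3a1, were also lower in Lep than in Par, and were 65656 to 71885 in BrM. The single markers did not share 1 order. Dcn had means of 1701 in Par, 1079.0 in Int, 241 in Lep and 90.1 in BrM, the same order as C1s. Pdgfra was lowest in BrM, at 732.5, against 2368 in Par and 3088 in Int. Pdgfrb was highest in Lep, at 684 against 128 in Par, as was Col1a2, at 29.7 against 12.6. Lum was lowest in Lep, at 0.660 against 209 in Par, and Col1a1 in Int, at 8.31 against 55.2. Their part in the result was not tested. C1rb, a near copy of C1ra, had at most 10.6 counts in any library, and reads that the counting could assign to either copy cannot be told apart here.

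In MDA-MB-231 both proteases were low and the replicates differed widely. C1S had 25.2, 22.2 and 21.0 in Par, 93.6 and 106 in Int, 132 and 45.6 in Lep, and 27.9, 119 and 106 in BrM. Every derivative library lay above every Par library. The differences from Par were 2.08 ± 0.63 in Int (log2, adjusted p = 0.06), 1.73 ± 0.63 in Lep (0.38) and 1.59 ± 0.56 in BrM (0.23), and limma called none of them. C1R had 74.6, 96.2 and 157 in Par, 349 and 331 in Int, 287 and 88.2 in Lep and 131, 262 and 213 in BrM. The Int libraries were highest, 1.70 ± 0.51 above Par (adjusted p = 0.06), and Lep overlapped Par. DESeq2 called C1R and C1S in Int with Par, with adjusted p of 0.01 and 0.0055, and C1S in BrM with Par (0.022), and edgeR called C1S in Int with Par (0.048).

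**Figure D2:**
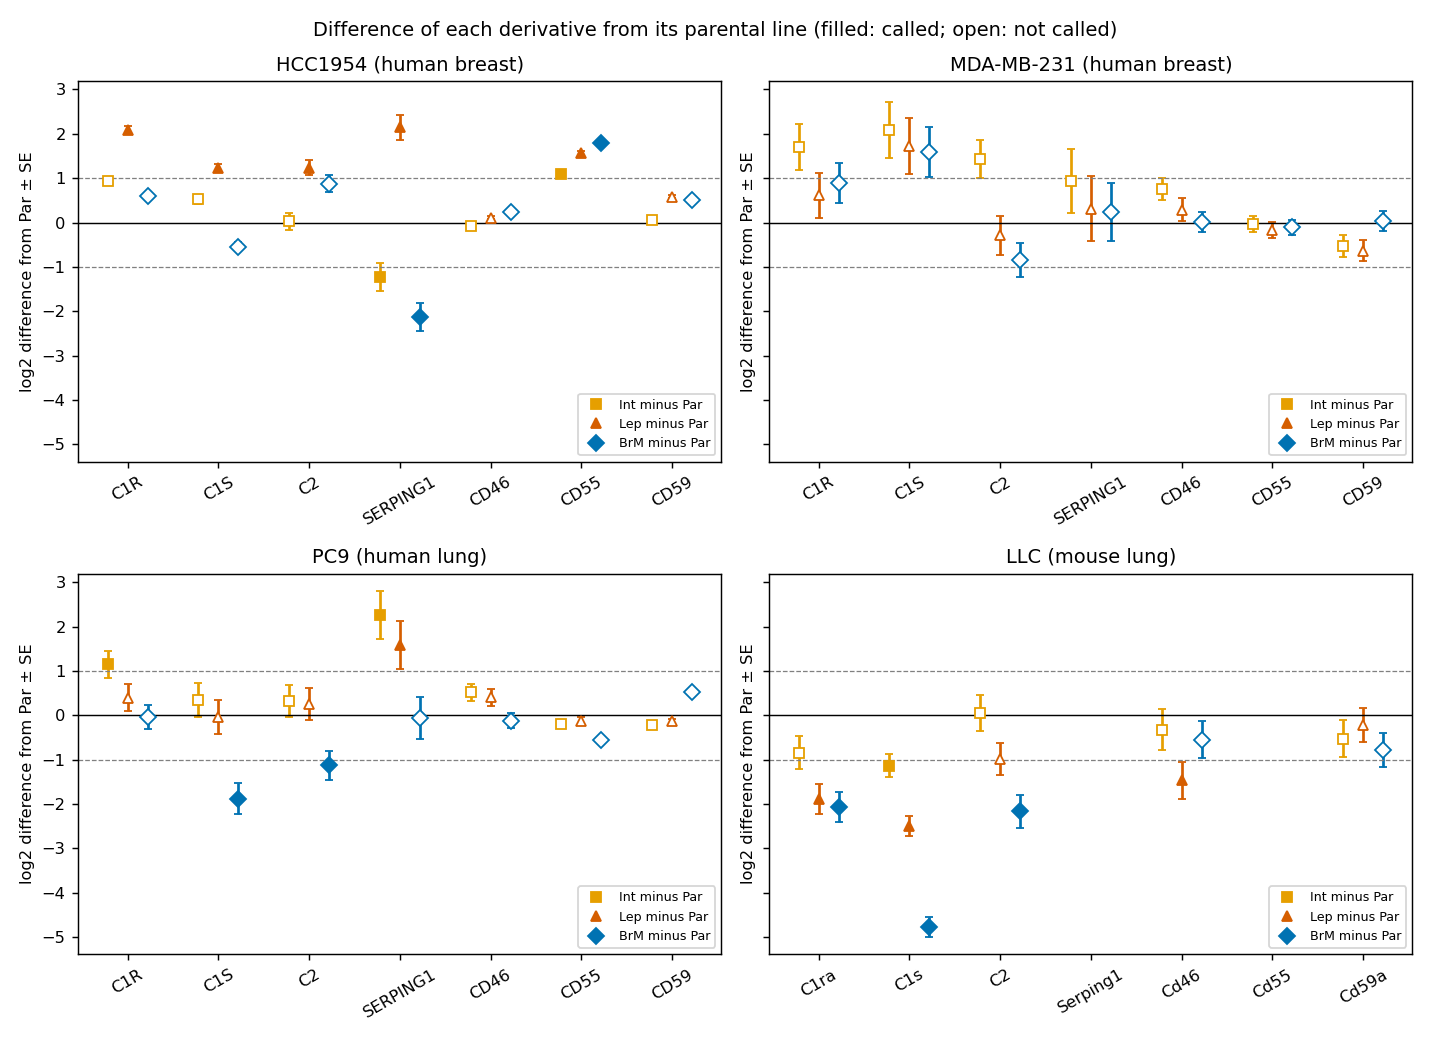
Log2 difference ± SE of Int, Lep and BrM from Par for each tested gene in the 4 models, filled where called, with dashed lines at -1 and 1. In HCC1954, 5 of 7 Lep values are filled and above 1, and in LLC the 3 filled Lep values, for C1ra, C1s and Cd46, lie at -1.90, -2.49 and -1.46.

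C1R and C1S are neighbours and their products act in 1 complex. Both were called higher in HCC1954 Lep with Par and lower in LLC Lep with Par, but their ratio was not the same in all stages. The ratio of C1S counts to C1R counts within a library removes the library's scaling. It was not corrected for length or GC, which is 55.33% in C1R and 47.85% in C1S. In HCC1954 it was 1.51 to 1.53 in Par, 1.11 to 1.18 in Int, 0.814 to 0.863 in Lep and 0.660 to 0.713 in BrM, with no overlap between stages. In PC9 it was 2.06 to 2.23 in Par, 1.19 to 1.28 in Int, 1.31 and 1.95 in Lep, and 0.583 to 0.619 in BrM. Here BrM was again lowest, and every derivative was below Par. In LLC the ratio of C1s to C1ra was 1.10 to 1.16 in Par, 0.866 to 0.979 in Int, 0.541 to 1.34 in Lep and 0.155 to 0.207 in BrM, so BrM lay below all others, and Lep 2, at 1.34, stood above Par while the other two Lep libraries were below Int. In MDA-MB-231 it was 0.134 to 0.338 in Par, 0.268 to 0.320 in Int, 0.460 to 0.517 in Lep and 0.213 to 0.496 in BrM, so Lep lay above Par there. The log2 ratio in BrM minus that in Par was -1.14 in HCC1954, -1.85 in PC9, -2.72 in LLC and 0.73 in MDA-MB-231. Over 12 two-sided exact permutation tests of a derivative against Par, the p-values of BrM were 0.2, 0.1, 0.1 and 0.3, with adjusted values of 0.27, 0.27, 0.27 and 0.36. With 3 libraries against 3 the smallest possible p is 0.1, and with 2 against 3 it is 0.2, so none of these tests could reach 0.05.

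**Figure D3:**
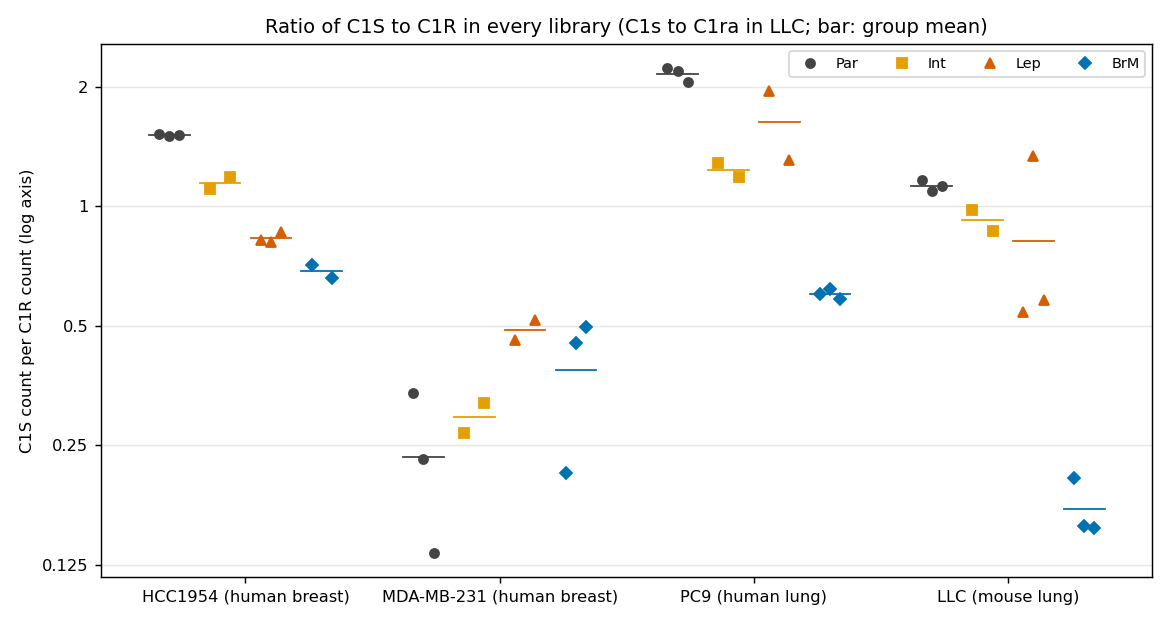
C1S count per C1R count (log axis) in every library, C1s per C1ra in LLC, with a bar at each group mean. The BrM libraries are lowest in HCC1954, PC9 and LLC, at 0.660 to 0.713, 0.583 to 0.619 and 0.155 to 0.207, and not in MDA-MB-231.

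C2, which C1s cuts to give the catalytic part of the classical C3 convertase, was low in every model. In HCC1954 it had 28.5, 33.2 and 40.8 normalized counts in Par, 34.2 and 34.6 in Int, 72.7, 93.0 and 78.8 in Lep, and 59.6 and 66.8 in BrM. Lep was highest, followed by BrM, and Int did not differ from Par beyond the spread. C2 was higher in Lep than in Par by 1.24 ± 0.17 (log2, adjusted p = 1.6e-05) and than in Int by 1.21 ± 0.19 (8.6e-05), the latter 0.70 and not called after quantile normalization. In MDA-MB-231 it had 63.0 and 88.2 in Int and 9.45 to 32.3 in all other libraries. BrM, with 17.2, 18.5 and 9.45, differed from Int by -2.29 ± 0.43 (adjusted p = 0.0096), a call lost without Int 1 (-2.53, adjusted p = 0.068) or Int 2 (-2.05, 0.12). Int was higher than Par by 1.44 ± 0.43, which limma did not call (adjusted p = 0.06) and edgeR and DESeq2 did (0.043 and 0.0095).

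In PC9, C2 had 23.3, 31.8 and 27.0 in Par, 27.0 and 43.4 in Int, 27.9 and 37.6 in Lep, and 15.3, 15.8 and 6.74 in BrM. BrM lay below all others. It differed from Par by -1.13 ± 0.32 (adjusted p = 0.012) and from Int by -1.46 ± 0.36 (0.0029), and Lep was higher than BrM by 1.38 ± 0.36 (0.0041). Without BrM 3 the difference from Par was -0.77 and not called, with a pseudocount of 10 it was -0.75 and that of Lep from BrM 0.94, neither called, and without Int 2 that from Int was -1.13 with adjusted p = 0.056. In LLC, C2 had 82.5, 99.6 and 79.7 in Par, 105 and 77.7 in Int, 29.4, 34.5 and 79.4 in Lep, and 16.5, 26.2 and 14.8 in BrM. BrM was again below all others, and Lep 3 stood close to Par. In BrM it differed from Par by -2.16 ± 0.37 (adjusted p = 0.00045) and from Int by -2.22 ± 0.41 (0.00075). Lep was higher than BrM by 1.18 ± 0.37 (adjusted p = 0.02), a call lost without Lep 3 (0.75), BrM 1 (1.09) or BrM 3 (1.02), after quantile normalization (0.83), with a pseudocount of 10 (0.91) and in the fit of 2 groups (1.18, adjusted p = 0.085). In human annotation C2 overlaps C2-AS1 and ZBTB12, and the strand setting of the counting is not stated, so reads shared with them cannot be told apart.

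SERPING1, the inhibitor of C1r and C1s, had the widest span of any member in HCC1954. It had 41.7, 43.8 and 32.9 normalized counts in Par, 10.5 and 24.7 in Int, 206, 188 and 143 in Lep, and 6.47 and 10.4 in BrM. The 4 stages did not overlap, with Lep highest, then Par, Int and BrM. It was higher in Lep than in Par by 2.15 ± 0.28 (log2, adjusted p = 9.6e-06), than in Int by 3.37 ± 0.32 (6.1e-07) and than in BrM by 4.27 ± 0.32 (5.3e-08). It differed from Par by -1.22 ± 0.32 in Int (adjusted p = 0.0033) and by -2.12 ± 0.32 in BrM (3.6e-05). The Int call was lost without Int 1, at -0.65, with a pseudocount of 10, at -0.88, and after quantile normalization, at -0.39. The Lep and BrM stages of HCC1954 thus lay on opposite sides of Par for the inhibitor. The same held for C1S, at 1.23 in Lep and -0.54 in BrM, the latter under 2-fold. Both stages lay above Par for C1R, C2, CD46, CD55 and CD59.

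In PC9, SERPING1 was near the filter, with 6.13, 13.4 and 2.70 in Par, 25.2 and 45.1 in Int, 32.3 and 13.4 in Lep, and 4.71, 6.57 and 6.74 in BrM. Int lay above Par and BrM, and Lep 2 was within the range of Par. It was higher than Par by 2.26 ± 0.54 in Int (log2, adjusted p = 0.0026) and by 1.59 ± 0.54 in Lep (0.02). The Lep call was lost without Par 3 (1.11) or Lep 1 (0.99) and in 5 settings that keep all libraries, listed in the closing section. BrM differed from Int by -2.32 ± 0.54 (adjusted p = 0.002), and Lep higher than BrM by 1.66 ± 0.54 (0.015), a call lost without Lep 1 (1.05), with a pseudocount of 10 (0.98), and after the length and GC correction alone (1.29, adjusted p = 0.054) or with the replicate block (1.08, 0.12). In MDA-MB-231 the Lep libraries had 107 and 16.4, the highest and the lowest of the model's 10 libraries, and no comparison was called. In LLC, Serping1 was not tested. It had 3.56, 1.99 and 1.19 in Par, 9.32 and 3.38 in Int, 8.95, 42.2 and 6.33 in Lep, and 0 in all 3 BrM libraries, where a count of 0 allows up to 3 reads.

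CD55, the decay-accelerating factor, was the membrane regulator called higher in HCC1954. It had 1372, 1402 and 1467 normalized counts in Par, 2822 and 3249.5 in Int, 4214, 4243 and 4082 in Lep, and 4861 and 4915 in BrM. All derivatives lay above Par and the 4 stages did not overlap, with BrM highest. CD55 was higher than Par by 1.10 ± 0.05 in Int (log2, adjusted p = 3.9e-10), by 1.56 ± 0.05 in Lep (2e-12) and by 1.79 ± 0.05 in BrM (2.9e-12). The Int value is close to the limit: it was 0.99 and not called after the length and GC correction, and was lost at 1.00 without Int 2. CD55 was thus higher in BrM than in Lep, with Lep minus BrM at -0.23 ± 0.05, under 2-fold. In PC9 it was lower in BrM, with 760.2, 878 and 759, than in Par, with 1207, 1193 and 1148, at -0.57 ± 0.08, a change of less than 2-fold with adjusted p = 9.2e-05. In MDA-MB-231 it ran from 5799.8 to 8066 over all 10 libraries, with differences from Par of -0.16 to -0.03, none called. The 95% interval in Lep with Par was -0.57 to 0.25. In LLC, Cd55 was at 0 in all Par, Int and BrM libraries and had 3.83, 6.39 and 0.703 in Lep, from 3, 5 and 1 reads, so it was not tested.

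CD59, the inhibitor of the membrane attack complex, was abundant in the human lines and moved less than 2-fold in every called or uncalled comparison there. In HCC1954 it had 10313, 9753 and 10057 in Par, 10161 and 10665 in Int, 15419, 15386 and 14443 in Lep, and 14074 and 14406 in BrM. Lep and BrM lay above Par and Int without overlap, by 0.59 ± 0.03 (log2, adjusted p = 1.3e-09) for Lep with Par and by 0.50 ± 0.04 (2.8e-08) for BrM with Par, and neither reached 2-fold. In PC9 it had 6449.7, 6443 and 6526 in Par, 5486 and 5669.7 in Int, 5917 and 5844 in Lep, and 9055, 9152 and 9551 in BrM. BrM was highest, 0.52 ± 0.05 above Par (adjusted p = 2.6e-06) and 0.73 ± 0.05 above Int (1.1e-07). The small differences of Int and Lep from Par, -0.21 and -0.14, changed sign to 0.30 and 0.40 when length and GC were corrected for. In MDA-MB-231 it ran from 20282 to 49285, and Par 1 to 3 alone had 29203, 37756 and 49285. In LLC, Cd59a was low, from 16.5 to 56.9, with no call, and its near copy Cd59b had 5.11 to 24.0.

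CD46, the cofactor for factor I, was abundant in the human lines and was called in no human comparison. In HCC1954 it had 13957, 13868 and 14263 in Par, 12569 and 14246 in Int, 15042, 15889 and 14594 in Lep, and 16162 and 16982 in BrM. The differences from Par were -0.07, 0.11 and 0.24, with 95% intervals that stay within -0.17 and 0.34. In PC9 it had 8339.6, 8464 and 7989.7 in Par, 11051 and 12705 in Int, 7789 and 15269 in Lep, and 7821, 7690.0 and 7194 in BrM. Lep 1 lay within the range of BrM and Lep 2 was the highest of the model, and Int lay above Par by 0.52 ± 0.19 (log2, adjusted p = 0.028), under 2-fold. After the length and GC correction that difference was 1.06 and called, as were Lep with BrM at 1.03 and BrM with Int at -1.11. In MDA-MB-231 it had 8270.1, 5448 and 4479.7 in Par, 9237 and 10549 in Int, 6501 and 7927 in Lep, and 6884, 5453 and 5560.2 in BrM. BrM differed from Int by -0.73 ± 0.25 (adjusted p = 0.047), which became 0.073 after the length and GC correction.

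Mouse Cd46 was low, with 52.6, 45.1 and 51.1 in Par, 44.9 and 34.3 in Int, 12.8, 19.2 and 21.1 in Lep, and 50.7, 15.3 and 47.7 in BrM. Lep lay below Par and Int without overlap and differed from Par by -1.46 ± 0.41 (log2, adjusted p = 0.012). Lower Cd46 in Lep than in Int (-1.14 ± 0.46, adjusted p = 0.059) and than in BrM (-0.91 ± 0.41, 0.087) was called by edgeR (0.037 and 0.036) and DESeq2 (0.036 and 0.034) and not by limma. Cr1l, the gene of the rodent regulator Crry, was far more abundant, with 1031, 1031 and 1129 in Par, 781 and 857 in Int, 939, 1255 and 1159.6 in Lep, and 1145, 1201 and 1138 in BrM. Its Lep libraries lay on both sides of Par.

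Levels of different genes can be set side by side only per length, here as group means of normalized counts per kilobase of the longest transcript. In HCC1954 Par the order from high to low was CD46 at 1793, CD59 at 1316, C1S at 967, C1R at 561, CD55 at 489, SERPING1 at 17.7 and C2 last. In HCC1954 Lep the proteases came first, with C1R at 2388 and C1S at 2264, followed by CD59 at 1976, CD46 at 1939, CD55 at 1445, SERPING1 at 80.2 and C2 at 28.6. The transcripts in use were not measured and may be shorter than the longest, so this order depends on the lengths taken. Before division by length, mean counts there were 15175 for CD46 and 15082.5 for CD59, above 8361 for C1R and 6964 for C1S. In MDA-MB-231 Lep the regulators CD59, at 3262.5, CD55, at 2301, and CD46, at 922, stood far above C1R at 53.6 and C1S at 28.9. In PC9 Lep the order was CD46 at 1473, CD59 at 771, CD55 at 377, C1S at 227 and C1R at 112, with C2 at 11.5 and SERPING1 at 10.2 last. The PC9 Lep libraries were far apart, and in Lep 1 alone C1S stood above CD55 and SERPING1 above C2. All 3 membrane regulators thus had a higher level per length than C2 and SERPING1 in each of these Lep groups.

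**Figure D4:**
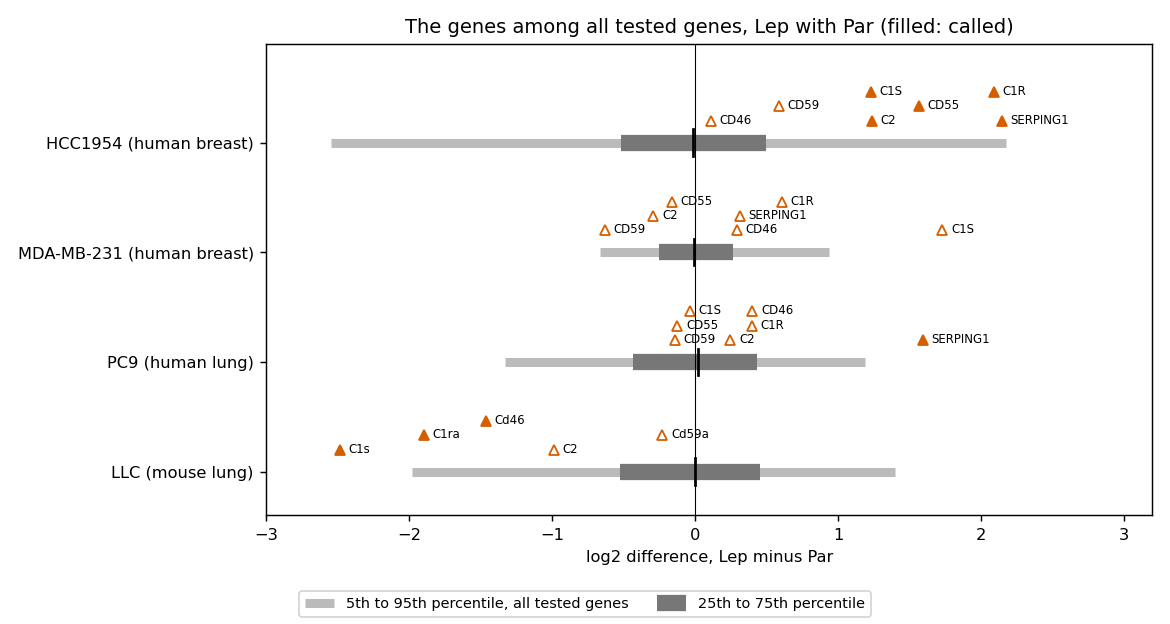
Log2 difference between Lep and Par for each tested gene of the pathway (triangles, filled where called), above the spread of all tested genes of the same model (bars from the 5th to the 95th and from the 25th to the 75th percentile, tick at the median). In HCC1954, C1R at 2.09 and SERPING1 at 2.15 lie close to the 95th percentile of all genes, 2.18, and in LLC, C1s at -2.49 lies below the 5th percentile, -1.98.

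Other complement genes, a list of 53 chosen with earlier results of these data known, moved in both directions. Named here are called genes with a group mean of at least 100, largest change first. In HCC1954 Lep with Par, 10 of 24 tested were called higher and 6 lower, where 26.8% of all tested genes were called. CR2, a complement receptor gene near CD55, rose from 32.1 ± 2.77 (SD, n = 3) to 320 ± 9.18 (n = 3). CFB, the alternative pathway protease beside C2, rose from 6123 ± 186 to 15538 ± 749, and SUSD4, a gene of a membrane complement regulator, from 225 ± 28.4 to 478 ± 19.1. CLU, whose product binds the terminal complex, was lower at 331 ± 16.4 against 3998 ± 90.8, and CFD, the protease that cuts factor B, at 141 ± 12.4 against 952 ± 37.1. The list's median log2 difference was -0.03, beside -0.02 for all genes.

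In PC9 Lep with Par, 4 of 15 complement genes were called higher and none lower (all genes 15.1%), and the median was 0.27 beside 0.02 for all genes. CFD rose by 2.79 ± 0.19 (SE, log2), CFB by 1.63 ± 0.08 and C3, the central component, by 1.19 ± 0.11, and the fourth was C5AR1. In LLC, 4 of 17 were called higher and 5 lower (all genes 20.3%). C3 rose there from 23.8 ± 4.75 (SD, n = 3) to 2149.5 ± 1823 (n = 3) and C3ar1, the receptor gene for C3a, from 128 ± 14.5 to 271 ± 74.5. Clu, Colec12 and Masp1 were lower, with log2 differences from -2.97 to -2.26, as C1ra and C1s were. In MDA-MB-231 limma called 0 of 21 in Lep with Par, edgeR called 0 and DESeq2 called 2. Unadjusted p was under 0.05 for 4 higher and 3 lower genes, against 10.6% of all genes.

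Genes of the interferon-gamma response were looked at because C1R, C1S, C2 and SERPING1 are known to respond to that cytokine. In HCC1954 Lep with Par, 11 of 21 tested were called higher and 2 lower (all genes 26.8%), and their median log2 difference was 1.23. The 2 lower genes, chosen after their values were seen, were those of the chemokines CXCL10 and CXCL11. In HCC1954 BrM with Par, 14 of 21 were higher and none lower (all genes 23.6%), with a median of 1.11. There C1R and C2 lay above Par, by 0.60 and 0.88, and C1S and SERPING1 below it, at -0.54 and -2.12. Of these only SERPING1 was called. PC9 Lep with Par had 5 of 15 higher and none lower (all genes 15.1%). LLC Lep with Par had 5 of 17 higher and 2 lower (all genes 20.3%), while C1ra and C1s fell. In LLC BrM with Par, 1 of 17 was higher and 8 lower (all genes 23.2%), and C1ra, C1s and C2 were lower too. In BrM with Int, list genes called higher and lower were 3 and 0 of 21 in HCC1954 and 0 and 5 of 21 in MDA-MB-231. They were 1 and 6 of 15 in PC9 and 0 and 10 of 17 in LLC. Members called lower there were 1, 1, 4 and 3, and all genes called were 11.1%, 23.6%, 17.2% and 27.9%. A link of list and members was not tested. In MDA-MB-231 Lep with Par limma called 0 of 21, edgeR called 0 and DESeq2 called 3. Unadjusted p was under 0.05 for 6 higher and 3 lower genes, against 10.6% of all genes. Of the 27 genes that make the GPI anchor, which CD55 and CD59 need, 1 was higher and none lower in HCC1954 Lep with Par, again against 26.8% of all genes, with a median of -0.02 over the list. It was PGAP3, named after its value was seen, at 1.42 ± 0.03 (SE).

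For the member with the widest span of stage means in each model, among those reaching a mean of 100, the 3 genes with the most similar pattern were taken by Pearson's r of log2 values over the model's libraries, among genes with a mean of at least 100. These libraries share stages, so r mostly restates the stage pattern and has no p. For SERPING1 in HCC1954 they were APOL1, CHST15 and PTGFRN, with r of 0.99 each over 10 libraries, while r with C1S was 0.85 and with CD55 0.01. For C1R in MDA-MB-231 they were GGT5, CYTH4 and KLHL17, at 0.95, 0.93 and 0.92, and r with C1S was 0.83. For C1S in PC9 they were C16orf62, HMGN3 and BRIX1, at 0.97 each, and r with CD59 was -0.86. For C1s in LLC they were Gas7, Errfi1 and Kif13a, at 0.99, 0.99 and 0.98 over 11 libraries, and r with C2 was 0.93 and with C1ra 0.85.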

How the data were processed

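The authors deposited 1 table per model of normalized counts (a linear signal: reads counted per gene, divided by a size factor of each library). HTSeq 0.5.4, FastQC 0.11.3 and DESeq2 (no version) and the builds hg19 (GRCh37) and mm10 (GRCm38) are named in the submitters' processing notes, and the aligner and the strand setting of the counting are not given in the sources used here. Libraries were made from 500 ng of RNA and read as 50 bases, or 75 for MDA-MB-231, per the labels' protocols. Dividing by the value of 1 read gave whole reads (tolerance 0.01) in all libraries.

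The main test was limma 3.58.1 (R 4.3.3) with a trend on log2(normalized count + 1), with all libraries of a model in 1 fit and genes kept at a value of 10 or more in at least 2 libraries, so fold changes of low genes are understated. Genes were called at a Benjamini-Hochberg adjusted p under 0.05 and a log2 difference of at least 1. The 7 genes were named by symbol and the likeness search and lists as stated beside the results. Members and lists were chosen with earlier results of these data known. A list gene that the naming rule selects is not reported here. Alternatives were edgeR 4.0.16 and DESeq2 1.42.0 on recovered reads, TMM and quantile normalization, a pseudocount of 10, no filter, a filter at 50, fits of 2 groups, a replicate block, a length and GC correction (human tables) and leaving out each library. The tests were checked on simulated data. Lengths came from GENCODE, for 92.67% of human symbols. Permutation tests used scipy 1.17.1.

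Groups share replicate numbers, whose pairing the labels do not state. Among comparisons with 3 pairs, deviations of same-numbered libraries correlated above 0.1 in every pair for MDA-MB-231 BrM with Par alone (r = 0.50, 0.26 and 0.23 over genes), where the replicate block gave 0 calls, as did the fit without it.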

Additional observations from a re-analysis of the deposited data

Results flagged for a closer look

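The sets of libraries of a comparison moved wholly in opposite directions in 43 pairs of models, counted per gene and comparison. In 4 of these the gene was called in both. The same was not counted over all genes, so these counts do not set the members apart from other genes. The difference between models was not tested, since the tables were normalized separately. C1R in Lep with Par was higher in HCC1954 by 2.09 on the log2 scale, and C1ra in LLC differed by -1.90. C1S in Lep with Par differed by 1.23 in HCC1954, and C1s by -2.49 in LLC. C1R in Lep with Int differed by 1.16 in HCC1954, and C1ra by -1.06 in LLC, a call that edgeR did not make. SERPING1 in Int with Par differed by -1.22 in HCC1954 and by 2.26 in PC9, on values of at most 45.1 normalized counts. No group had the 4 libraries needed to look for a single outlying library.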

How the results depend on the processing

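Of 43 called member differences, 0 reversed in any setting run, 9 lost the call in a setting that keeps all libraries and 16 on leaving out 1 library, and 25 kept it in each setting that tested them (the filter at 50 left out some low members, and LLC had no length and GC correction). Counts of called members over the 6 comparisons were 16 in HCC1954, 1 in MDA-MB-231, 12 in PC9 and 14 in LLC. The shares of all genes called under the alternative settings are not given here. The counts of this section therefore do not set the members apart from other genes. With edgeR, MDA-MB-231 had 3 calls, 2 of them in Int with Par, and with DESeq2 6, of which 3 in Int with Par, 1 in Lep with Int and 1 in BrM with Par. C1S in PC9 Lep with Par, -0.03, became 0.34 with edgeR, 0.31 with DESeq2 and 0.00999 after quantile normalization. Quantile normalization gave 1 call in HCC1954 Int with Par, 2 in HCC1954 BrM with Int and 1 in LLC Lep with Int. A pseudocount of 10 gave 1 in HCC1954 Int with Par, 1 in MDA-MB-231 Int with Par (2 in the model), 0 in PC9 Lep with Par, 1 in PC9 BrM with Par, 1 in PC9 Lep with BrM, and 1 in LLC Lep with BrM. The filter at 50, which removes the low members from the test, gave 5 calls in PC9: 0 in Lep with Par, 1 in Int with Par, 1 in BrM with Par, 1 in Lep with BrM and 2 in BrM with Int. With no filter LLC had 5 calls in Lep with Par and 4 in Lep with BrM. The added calls in both were Serping1 and Cd55, which the filter had removed and which were higher in Lep. Their Lep means were 19.1 and 3.64, against 2.25 and 0 in Par and 0 for both in BrM. Fits of 2 groups gave 1 in MDA-MB-231 Int with Par (2 in the model), 0 in PC9 Lep with Par, and 1 each in LLC Lep with Int and Lep with BrM.

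The length and GC correction gave 1 call in HCC1954 Int with Par, 3 in MDA-MB-231 Int with Par, 2 in MDA-MB-231 BrM with Int (5 in the model) and 0 in PC9 Lep with Par. It moved CD46 in MDA-MB-231 BrM with Int from -0.73 to 0.073, and CD59 in PC9 from -0.14 to 0.40 in Lep with Par and from -0.21 to 0.30 in Int with Par. It was not run for LLC. The replicate block gave 0 calls in PC9 Lep with Par and totals of 16, 1, 11 and 15 in the 4 models. The replicate block with length and GC correction gave 1 call in HCC1954 Int with Par, 1 in MDA-MB-231 Int with Par, 2 in MDA-MB-231 BrM with Int (3 in the model) and 0 in PC9 Lep with Par. With it CD46 in MDA-MB-231 BrM with Int was 0.059, and in PC9, C2 in Lep with Par was -0.15 and CD59 was 0.42 in Lep with Par and 0.33 in Int with Par. TMM moved no count by over 1.5 times. The cause of these changes was not tested.

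Leaving out 1 library at a time gave 1 to 2 calls in HCC1954 Int with Par and 0 to 2 in BrM with Int. In MDA-MB-231 it gave 0 to 3 in Int with Par, 0 to 1 in BrM with Int and 0 to 4 in the model, and in Lep with Par the difference ran from -0.24 to 1.46 for C1R, -0.81 to 0.23 for C2, -1.004 to 1.63 for SERPING1 and -0.35 to 0.022 for CD55. In PC9 it gave 0 to 2 in Lep with Par and in Lep with Int, 1 to 2 in Int with Par and in BrM with Par, and 2 to 4 in BrM with Int. There the difference in Lep with Par ran from -0.34 to 1.14 for C1R, -1.06 to 0.99 for C1S, -0.085 to 0.89 for CD46 and -0.25 to 0.0014 for CD55. In LLC it gave 1 to 4 in Lep with Int, 0 to 1 in Int with Par and 1 to 3 in Lep with BrM, and Cd59a in Lep with Par ran from -0.66 to 0.10. Where it leaves 1 library in a group, that library is assumed to vary like the other groups. Members at a few reads, Serping1 and Cd55 in LLC, were too low to compare.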
